A study of Mus musculus with 12 samples.

Results

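The regions described here are stretches of mouse T cell chromatin that were open in both regulatory T cells (Treg) and conventional T cells (Tconv), but ranked as much stronger in the lists of 1 cell type than in those of the other. The assay was ATAC-seq, which tags accessible DNA by transposase insertion, and the deposited file of each library is a list of broad peaks. Merging the peaks of 11 lists (5 Treg and 6 Tconv) gave 39974 regions, and 14728 of these were present in every list. Members were chosen by a measured value, the percentile of the region's strongest peak within each list by −log10 p, as the authors' peak caller gave it. A region was Treg-stronger when its mean percentile over the Treg lists exceeded that over the Tconv lists by at least 15, and Tconv-stronger when it fell short by at least 15. There were 1186 Treg-stronger regions (8.05% of the 14728) and 945 Tconv-stronger regions (6.42%), 2131 in all.

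The cells were splenic CD4+ T cells of reporter mice in which GFP marks Foxp3 expression. GFP-positive cells are the Treg and GFP-negative cells the Tconv, with 100000 sorted cells in a library. The animals were either wild type (WT) or carried a deletion of an enhancer 70 kb from Lrrc32 (KO), and all carried the Foxp3 reporter. Lrrc32 encodes GARP, the surface protein that holds latent TGF-beta on Treg. Each of the 4 groups had 3 libraries. KO Treg replicate 2, whose list held 5262 peaks while the other 11 held 21269 to 27605, was left out by the rule. The labels do not say that each library came from a separate animal, so the spread between libraries may in part be technical. In sorted populations a weaker peak can mean fewer cells with the region open or less opening in each cell, and these cannot be told apart.

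Treg and Tconv descend from the same CD4+ lineage and share most of their open chromatin. Foxp3, the factor that defines Treg, is known to act largely at enhancers that are already accessible in its precursors, so differences between these cell types are often of degree. A list of peaks by itself records presence, and a region open in both cell types counts as unchanged however unequal its signal. The rank of the peak within its list keeps part of that information. It depends on the length and depth of the list, and depth is unknown for these libraries. No gene positions or genome of the build used (NCBIM37) were used here, so regions are given by position alone, without genes, markers or sequences.

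Since the members were chosen on the difference between the cell types, its size is a description and was not tested. The median difference was 20.04 percentile points in Treg-stronger regions (quartiles 17.1 and 25.02) and −20.5 in Tconv-stronger regions (quartiles −27.1 and −17.5), against 1.06 over all shared regions. The largest were 74.9 and −75.2. A difference of at least 30 was seen in 154 Treg-stronger and 165 Tconv-stronger regions, and one of at least 50 in 14 and 10. The median Treg-stronger region stood at a percentile of 63.6 in Treg and 40.3 in Tconv. For Tconv-stronger regions the medians were 38.5 in Treg and 63.7 in Tconv. Over all shared regions they were 68.3 in Treg and 66.8 in Tconv. Members of each direction thus stood below the typical shared region even in their stronger cell type. In each direction the lists of the weaker cell type scattered more. The median SD between lists was 7.89 in Treg and 12.7 in Tconv at Treg-stronger regions, and 12.4 and 10.3 at Tconv-stronger regions. Over all shared regions it was 6.90 in Treg and 8.66 in Tconv, so the Tconv lists scattered more there too.

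**Figure D1:**
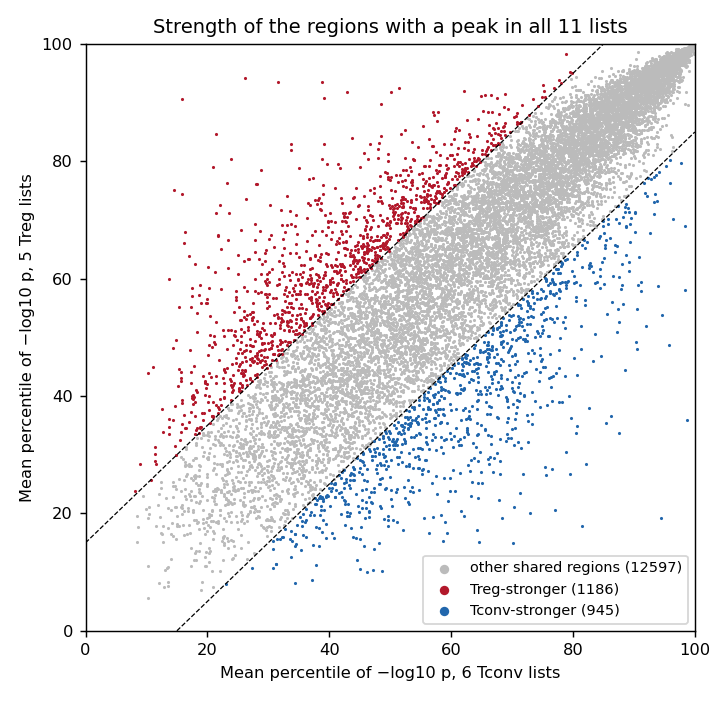
Each point is 1 of the 14728 regions with a peak in all 11 lists, placed by its mean percentile of −log10 p over the 6 Tconv lists (x axis) and over the 5 Treg lists (y axis). The dashed lines mark a difference of 15. The 1186 Treg-stronger regions lie above them and the 945 Tconv-stronger regions below, and the cloud narrows toward its strong end.

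The strongest shared regions held no member. Among regions with a mean percentile of 90 or more over the 11 lists, 0 of 2071 were members, and from 80 to 90 Treg-stronger regions were 0.513% and Tconv-stronger regions 1.37% of 2337. From 40 to 50, the shares were 16.2% and 12.6% of 1752. Near either end of the percentile scale little room is left for a difference of 15, so this profile follows in part from the measure.

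For 372 Treg-stronger regions (31.4%), every Treg list ranked the region above every Tconv list, a separation met by 3.97% of all shared regions. The reverse held for 281 Tconv-stronger regions (29.7%), against 2.51% of all shared regions. These shares use the same contrast as the rule and support nothing by themselves. In most members, then, the ranges of the lists overlapped although the means differed by 15 or more.

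The region with the largest Treg excess lay on chromosome 11 from 26540144 to 26540857. It ranked at 88.0, 84.98 and 91.2 in WT Treg replicates 1 to 3 and at 93.9 and 95.4 in KO Treg replicates 1 and 3. In the 6 Tconv lists it ranged from 2.9 to 28.2 with a median of 16.3. The groups were far apart, at 90.7 ± 4.3 (SD, n = 5) and 15.8 ± 8.5 (SD, n = 6). The fold over background that the authors' peak caller gave was 8.5 to 11.0 in the Treg lists and 4.4 to 5.4 in the Tconv lists, so the region was near the top of the Treg lists and near the bottom of the Tconv lists.

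Second was a region on chromosome 1 from 155570235 to 155571144. The 5 Treg values were nearly identical, 92.8, 93.0 and 93.0 in WT and 96.0 and 95.8 in KO. The Tconv values were not: they ran from 2.4 to 64.1 with a median of 24.1, and KO Tconv replicate 2 gave the highest. The mean difference was 68.0 with a standard error of 9.5. All Treg lists were still above all Tconv lists.

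Next came chromosome 7 from 113379480 to 113381043, where the Treg values were 82.2, 87.4 and 81.6 in WT and 87.6 and 84.0 in KO. Its Tconv values lay between 12.5 and 31.9, with a median of 20.7. The difference of 63.2 had the smallest standard error of the 12 leading Treg-stronger regions, 3.5. On chromosome 14, a region from 71198163 to 71199052 ranked at 93.7, 94.0 and 98.1 in WT Treg and at 90.7 and 91.3 in KO Treg. Its Tconv lists ran from 1.7 to 46.2 with a median of 36.1, and the lowest was WT Tconv replicate 3. The KO Tconv lists, at 42.1, 46.2 and 40.4, were all above the WT Tconv lists, at 27.6, 31.7 and 1.7.

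The fifth, on chromosome 10 from 20898149 to 20899100, ranked lower in Treg, at 66.1, 78.3 and 85.4 in WT and 71.2 and 74.5 in KO, and had Tconv values from 2.4 to 20.7. The other 7 of the 12 leading Treg-stronger regions had differences from 51.5 to 58.6. Their positions were 41680238 to 41681022 on chromosome 8, 92906445 to 92907616 and 41153776 to 41154670 on chromosome 12, and 75729641 to 75730915 on chromosome 2. The rest were at 4075819 to 4076488 on chromosome 7 and at 94658297 to 94659061 and 88047002 to 88047803 on chromosome 10. In all 12 the Treg and Tconv lists did not overlap, which their choice by the largest differences makes likely.

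The Tconv excess was largest on chromosome 6 from 67297712 to 67298748. This region ranked at 96.3, 90.9 and 97.9 in WT Tconv and at 94.9, 93.0 and 93.7 in KO Tconv, against 10.5, 21.3 and 27.0 in WT Treg and 19.7 and 17.6 in KO Treg. The means were 94.4 ± 2.5 (SD, n = 6) and 19.2 ± 6.0 (SD, n = 5), so the gap was many times the spread within either cell type. The authors' fold was 7.1 to 9.4 in Tconv lists and 4.5 to 5.5 in Treg lists. The peak itself was also longer in Tconv, with a median of 724.5 bp against 243 bp.

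A region on chromosome 11 from 75132093 to 75132895 followed, with Tconv values from 71.6 to 91.6 (median 82.5) and Treg values of 28.6, 20.3 and 10.7 in WT and 24.9 and 5.0 in KO. The region on chromosome 1 from 66598593 to 66599927 was the strongest of these in absolute rank. It stood at 97.2 to 99.4 in all 6 Tconv lists, among the top 3% of peaks, and at 43.0, 30.7 and 48.6 in WT Treg and 12.4 and 45.2 in KO Treg. KO Treg replicate 1 was the low value.

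On chromosome 7 from 86508036 to 86508954 the Tconv lists ran from 66.6 to 86.8 with a median of 77.9, while the Treg lists were at 20.4, 21.3 and 29.95 in WT and at 15.4 and 15.6 in KO. On chromosome 3 from 126537352 to 126538121 the Tconv lists were tight, from 65.9 to 75.3. WT Treg replicate 3 stood at 37.6 there, and the other 4 Treg lists at 5.7 to 12.4. The other 7 leading regions had differences from −53.9 to −49.4. Chromosome 16 held 3 of them, at 45261308 to 45262108, 52142976 to 52143819 and 76309659 to 76311501. The others were at 51021485 to 51022409 on chromosome 9, 90921309 to 90922163 on chromosome 5, 60695733 to 60696529 on chromosome 10 and 61996287 to 61996890 on chromosome 15. The lists of the cell types did not overlap in any of the 12, which were likewise chosen by the size of the difference.

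**Figure D2:**
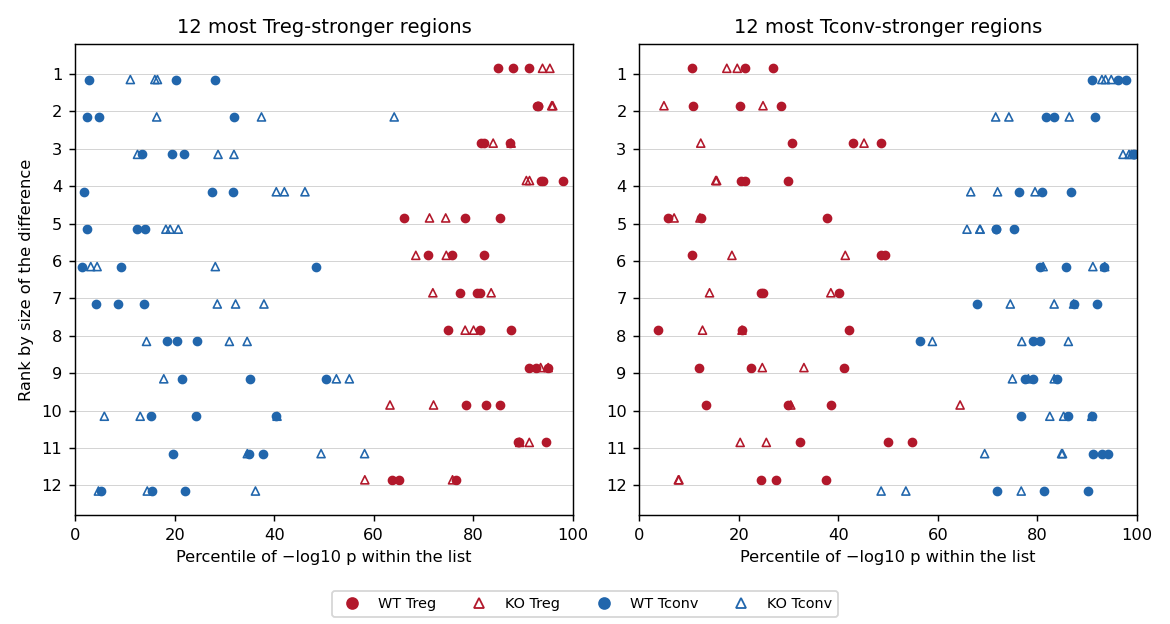
Percentile of −log10 p within each list (x axis) for the 12 Treg-stronger (left) and the 12 Tconv-stronger regions (right) with the largest differences, ordered by its size (y axis). Red marks are Treg lists and blue marks Tconv lists, filled circles are WT and open triangles KO. In each row the red and blue marks do not overlap.

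At the edge of the rule the regions were not distinct. The 2 Treg-stronger regions just inside the threshold, at 61803097 to 61803775 on chromosome 18 and 11664415 to 11666221 on chromosome X, had differences of 15.007 and 15.012. Just outside were 2 regions of chromosome 2, starting at 131005161 and 74663528, with 14.996 and 14.994. In the other direction, regions of chromosome 7 starting at 65996133 and 139964214 were just inside, with −15.001 and −15.002. The nearest outside started at 94590140 on chromosome 3 and 15855780 on chromosome 4, with −14.997 and −14.992.

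The fold over background moved in the same direction as the rank, but modestly. As the authors' peak caller gave it, the median fold at Treg-stronger regions was 6.38 in Treg and 5.43 in Tconv lists, and the median ratio was 1.17. At Tconv-stronger regions the medians were 5.59 and 6.57, with a ratio of 0.862. The ratio over all shared regions was 1.04. Among Treg-stronger regions 1142 of 1186 had a ratio above 1, and among Tconv-stronger regions 41 of 945 did. Of all 14728 shared regions 9906 did. The fold was given for the same peaks as the −log10 p of the rule, so this agreement is no separate support. The largest ratio was 2.05 and the smallest 0.594, so unequal rank went with modest differences in enrichment. When regions were ranked by this fold in place of −log10 p, 673 of the 1186 and 633 of the 945 still passed 15.

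Peak length differed as well. The median length of the called peak at Treg-stronger regions was 723 bp in Treg lists and 578 bp in Tconv lists, and at Tconv-stronger regions it was 504 bp and 622 bp. Over all shared regions it was 738 bp in Treg lists and 704 bp in Tconv lists. The peak was thus short mainly in the weaker cell type. The merged regions were of ordinary size, with median widths of 1027 bp (Treg-stronger) and 940 bp (Tconv-stronger) against 1035 bp over all shared regions. A single peak in each of the 11 lists made up 93.3% and 92.5% of them, against 93.4% of all shared regions.

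KO Treg replicate 2 was the only library that the rule did not use. Its short list had a peak in 232 of 1186 Treg-stronger regions (19.6%, exact 95% Clopper-Pearson interval 17.3% to 21.9%) and in 18 of 945 Tconv-stronger regions (1.90%, interval 1.13% to 2.99%). The intervals cover counting error only, and the regions come from 1 library, so no test was made. The median percentile over the 11 lists was 50.9 in Treg-stronger and 52.5 in Tconv-stronger regions, so the sets were of similar overall strength. Among all shared regions the share was 30.3%.

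Within bands of equal mean percentile the order was the same from 20 upward. Between 60 and 70, KO Treg replicate 2 had a peak in 35.7% of Treg-stronger, 14.98% of all and 2.45% of Tconv-stronger regions. Between 70 and 80 the shares were 48.4%, 30.2% and 2.33%. When regions were placed in bands by their mean over the Treg lists alone, the Treg-stronger and all shared regions came closer. The shares were 8.397% and 6.05% between 50 and 60, 15.9% (interval 11.96% to 20.5%) and 11.1% between 60 and 70, 29.6% and 27.7% between 70 and 80, and 47.5% and 53.9% between 80 and 90. Tconv-stronger regions were lower than all shared regions there, with 3 of 60 (5.0%) between 60 and 70 and 4 of 28 (14.3%) between 70 and 80. Of the 12 leading regions of each direction, 8 Treg-stronger and 0 Tconv-stronger ones had a peak in KO Treg replicate 2. Their means over the Treg lists were 67.9 to 94.1 and 14.98 to 36.6. Of all shared regions, 11.1% had such a peak at a Treg mean of 60 to 70 and 89.3% at 90 to 100. Between 10 and 40 the shares were 2.03% to 2.24%. The contrast of 8 with 0 therefore cannot be separated from rank in Treg. Among the leading Treg-stronger regions, the chromosome 1 region from 155570235 stood highest in that list, at a percentile of 77.4.

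**Figure D3:**
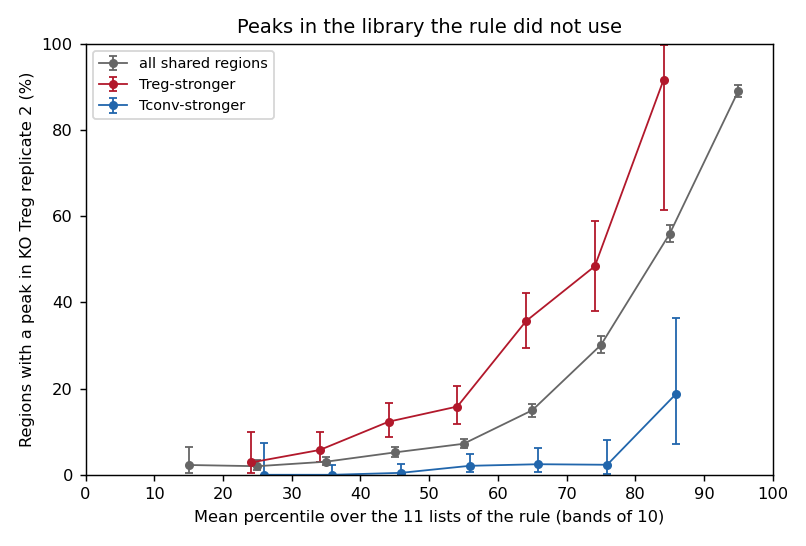
Share of regions present in the list of KO Treg replicate 2 (y axis, percent), the library outside the rule, by mean percentile over the other 11 lists in bands of 10 (x axis). Bars are exact 95% intervals, and bands with fewer than 10 regions of a set are not drawn. In each band from 30 to 90, the Treg-stronger regions lie above all shared regions and the Tconv-stronger regions below.

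The difference between the cell types was present in both genotypes for nearly all members, which the rule in part fixes, since it averages over the genotypes. In the WT libraries alone (3 against 3) the Treg mean was higher at 1184 of 1186 Treg-stronger regions, and in the KO libraries alone (2 against 3) at 1173. Among Tconv-stronger regions the Tconv mean was higher at 944 of 945 in WT and 941 in KO. Of all 14728 shared regions, 12726 kept the direction of their difference in the WT libraries alone and 11897 in the KO libraries alone. Agreement in direction was thus common outside the members too. Both genotypes passed 15 separately at 623 Treg-stronger and 547 Tconv-stronger regions, and at 1177 of all shared regions. By the percentile within the lists, the median difference at Treg-stronger regions was 24.6 in WT and 18.5 in KO, and at Tconv-stronger regions −20.8 and −23.9. The lists differed in length, however, and all 3 KO Tconv lists (24649 to 25283 peaks) were longer than all 3 WT Tconv lists (21269 to 24546). To remove list length, the regions were ranked again among the 14728 shared regions only. The median differences were then 21.0 in WT and 21.5 in KO at Treg-stronger regions, and −27.3 and −23.4 at Tconv-stronger regions.

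Choosing regions in 1 genotype and reading them in the other uses separate libraries. With ranks among the shared regions, 1747 regions were at least 15 higher in Treg in the WT libraries, with a median difference of 20.7. In the KO libraries 84.7% of them were again higher in Treg, against 51.1% of all shared regions, and the median was 11.7. Of these, 41.1% passed 15 again, against 10.9% of all shared regions. The 1830 regions at least 15 higher in WT Tconv were higher in KO Tconv in 84.2% of cases, with 44.9% past 15 again, against 11.0% of all. The reverse choice gave similar values: of 1608 Treg-stronger and 1617 Tconv-stronger regions set in KO, 84.5% and 86.9% had the same direction in WT. Past 15 again were 44.7% and 50.8%, against 11.9% and 12.4% of all. The median difference was smaller in the libraries that had not set it in each case, at −13.5 against −22.4 for Tconv-stronger regions set in WT, and at 13.1 and −15.3 against 21.2 and −21.9 for those set in KO.

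The comparison of KO with WT asks whether loss of the enhancer changed the strength of these regions. It was tested by limma on the percentiles among all 14728 shared regions, with Benjamini-Hochberg adjustment over all of them, in 1 fit of 4 groups. The rule averaged over genotypes and did not use this contrast, though it chose the members from the same lists. No shared region passed an adjusted p of 0.05 in Treg (0%), in Tconv (0%) or in the interaction of genotype and cell type (0%), and so no member did. The smallest adjusted p among members was 0.628 in Treg, 0.0602 in Tconv and 0.996 in the interaction. At an unadjusted limma p under 0.05 there were 666 regions in Treg, 1403 in Tconv and 661 in the interaction. The median standard error of a member's KO minus WT difference was between 8.7 and 10.3 percentile points in either cell type.

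Below that threshold the unadjusted counts leaned differently in the sets. The sets were chosen from the same lists, however. A region strong in a single genotype of a cell type could pass the rule through that genotype. These shares therefore cannot separate an effect of genotype from the choice of members, and were not tested. In Tconv, 116 Tconv-stronger regions (12.3%) were lower in KO at an unadjusted limma p under 0.05 and 6 (0.635%) were higher, where 4.55% and 4.98% of all shared regions were. Of Treg-stronger regions, 58 (4.89%) were higher and 14 (1.18%) lower in KO Tconv. In Treg, 83 Treg-stronger regions (6.998%) were higher in KO and 26 (2.19%) lower, against 2.27% and 2.25% of all shared regions. Tconv-stronger regions in Treg numbered 7 higher (0.741%) and 26 lower (2.75%). In the interaction, all shared regions gave 2.32% with a more positive and 2.17% with a more negative KO effect in Treg than in Tconv. Treg-stronger regions gave 30 (2.53%) and 17 (1.43%), and Tconv-stronger regions 40 (4.23%) and 10 (1.06%).

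The medians of each library show the same re-ranked values in another form, and are no separate support. The median percentile of the Treg-stronger regions among shared regions was 41.1, 40.6 and 41.8 in WT Treg and 45.9 and 44.6 in KO Treg. In Tconv it was 15.7, 16.1 and 16.7 in WT and 18.4, 20.2 and 19.8 in KO. The Tconv-stronger regions went the other way, at 45.1, 50.1 and 50.6 in WT Tconv and 43.7, 38.4 and 43.2 in KO Tconv. In Treg they stood at 14.3, 17.3 and 16.7 in WT and 12.97 and 14.2 in KO. In each of these 4 comparisons the WT and KO libraries did not overlap: Treg-stronger regions ranked higher and Tconv-stronger regions lower in KO, in both cell types. With percentiles within the whole lists only 1 of the 4 comparisons was without overlap, that of Treg-stronger regions in Tconv (31.6 to 39.9 in WT and 44.9 to 45.8 in KO). By the authors' fold, Treg-stronger regions had overlapping medians of 6.28 to 6.43 in WT Treg and 6.29 to 6.33 in KO Treg. All shared regions were lower in KO Treg by fold, at 6.50 to 6.52 against 6.66 to 6.70 in WT Treg. The Treg-stronger regions in Tconv overlapped by fold too, at 5.29 to 5.4002 in WT and 5.21 to 5.46 in KO. Tconv-stronger regions were lower in KO by fold too, at 5.98 to 6.50 in KO Tconv against 6.70 to 6.81 in WT Tconv, but all shared regions were also lower there (6.10 to 6.40 against 6.46 to 6.52). With so few libraries this is a description. The labels do not say whether WT and KO cells were sorted or sequenced together, so genotype and a possible batch cannot be told apart.

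**Figure D4:**
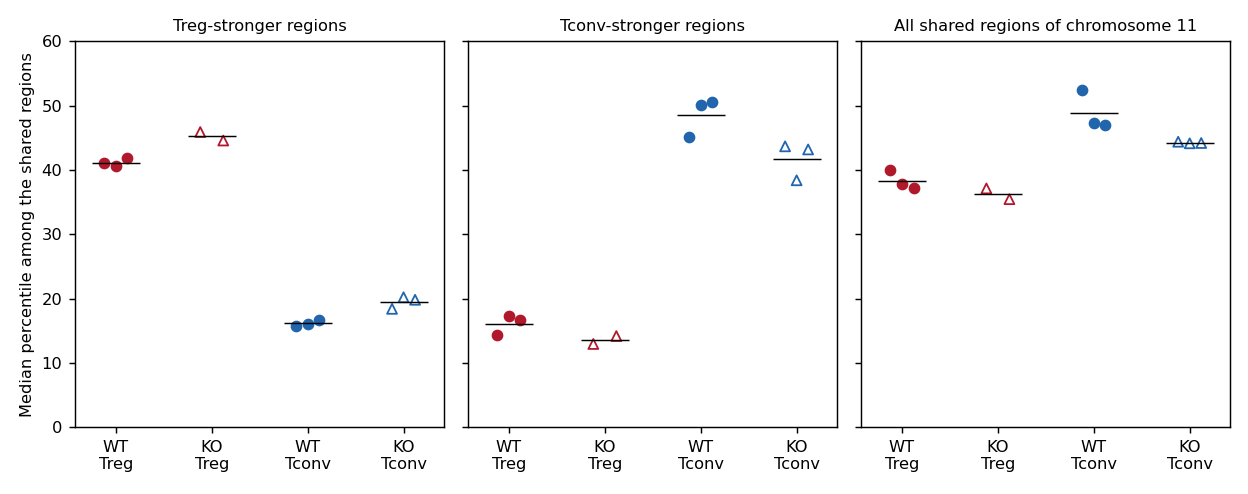
Median percentile among the 14728 shared regions (y axis) of the Treg-stronger regions (left), the Tconv-stronger regions (middle) and all shared regions of chromosome 11 (right), with 1 mark for each library and a line at the mean of each group. Filled circles are WT and open triangles KO. Treg-stronger regions lie higher in KO (44.6 and 45.9 in Treg) than in WT (40.6 to 41.8), and Tconv-stronger regions and chromosome 11 lie lower.

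The member closest to the threshold was a Tconv-stronger region on chromosome 15 from 86173318 to 86173924. Among the shared regions it ranked at 57.9, 77.3 and 58.3 in WT Tconv and at 13.5, 10.9 and 8.1 in KO Tconv. In Treg it was low in both genotypes, at 3.4, 3.7 and 13.8 in WT and 16.6 and 7.1 in KO. The KO minus WT difference in Tconv was −53.7 with a standard error of 6.9 (limma adjusted p = 0.0602). Without WT Tconv replicate 3 it was −56.5 and passed (limma adjusted p = 0.0477), in a fit over the regions shared by the remaining lists. Its KO Tconv and KO Treg values overlapped.

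The next Tconv-stronger regions lay at 103850475 to 103851697 on chromosome 12, with a difference of −36.5 (limma adjusted p = 0.173), and at 24696536 to 24697548 on chromosome 13, with −36.2 (limma adjusted p = 0.227). In both, each KO Tconv library was below each WT Tconv library, which the choice by the smallest p makes likely. Among Treg-stronger regions the smallest p in Tconv belonged to chromosome 15 from 101084060 to 101084779. It ranked at 21.1, 10.3 and 13.6 in WT Tconv and 56.2, 46.6 and 47.3 in KO Tconv, a difference of 35.1 (limma adjusted p = 0.227). At chromosome 2 from 105238806 to 105240338, KO Tconv stood at 60.6, 44.7 and 37.4 and KO Treg at 43.1 and 31.5, against 15.8, 9.2 and 10.6 in WT Tconv and 55.9, 51.4 and 44.5 in WT Treg. Treg ranked above Tconv in WT, and the KO values overlapped. Its difference in Tconv was 35.7 (limma adjusted p = 0.227). The third was on chromosome 15 from 6560812 to 6561539, at 30.5 (limma adjusted p = 0.282).

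In Treg the smallest p belonged to a Treg-stronger region on chromosome 19 from 16206687 to 16208255, which ranked at 26.3, 11.5 and 10.001 in WT and 47.3 and 53.3 in KO. The difference was 34.4 with a standard error of 6.5 (limma adjusted p = 0.628). A region on chromosome 17 from 50719348 to 50720791 stood at 19.5, 13.8 and 12.1 in WT and at 50.2 and 38.4 in KO (limma adjusted p = 0.749). One at 119056631 to 119057978 on chromosome 14 stood at 8.9, 16.1 and 4.6 in WT and at 32.9 and 33.7 in KO (limma adjusted p = 0.839). None of these passed the test. Among Tconv-stronger regions, chromosome 13 from 5756097 to 5757208 stood at 51.7, 41.5 and 46.0 in WT Treg and 20.8 and 18.2 in KO Treg. All 6 Tconv lists put it between 84.5 and 89.5. The other 2 started at 15916102 on chromosome 14 and 21178753 on chromosome 5, with differences of −28.9 and −27.2. The limma adjusted p was 0.978 for each of these 3, far from the threshold.

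The members were spread unevenly over the chromosomes. On chromosome 11, 111 of 900 shared regions (12.3%) were Tconv-stronger and 26 (2.89%) were Treg-stronger. Chromosome 19 had 48 (12.4%) and 20 (5.15%) of 388, and chromosome 17 had 64 (8.90%) and 43 (5.98%) of 719. Chromosome 14 leaned the other way, with 26 Tconv-stronger (4.75%) and 65 Treg-stronger regions (11.9%) of 547. Outside chromosomes 11, 17 and 19, 8.62% of shared regions were Treg-stronger and 5.68% Tconv-stronger. Since the rule used this contrast, the chromosome shares are descriptions.

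**Figure D5:**
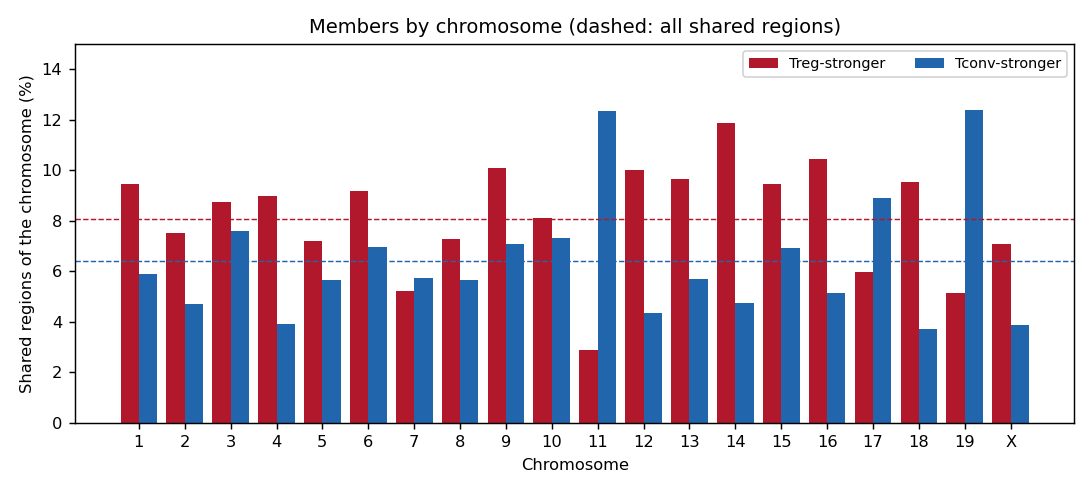
Treg-stronger (red) and Tconv-stronger regions (blue) as a percentage of the shared regions of each chromosome (y axis), by chromosome (x axis). Dashed lines mark the shares over all chromosomes, 8.05% and 6.42%. Chromosome Y, with 19 shared regions, is not drawn. Blue bars exceed red bars on chromosomes 7, 11, 17 and 19.

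On chromosome 11 the ranks by −log10 p were shifted beyond the members, while the fold was not. The median ratio of the authors' fold, Treg over Tconv, was 1.041 on chromosome 11, 1.042 on chromosome 17 and 1.044 on chromosome 19, close to 1.039 over all shared regions. By rank, the median shared region of that chromosome ranked between 35.5 and 39.9 in the 5 Treg lists and between 44.2 and 52.4 in the 6 Tconv lists, where 50 is the middle of all shared regions. It differed by genotype too, at 47.0 to 52.4 in WT Tconv and 44.2 to 44.4 in KO Tconv. Most of it came from the part beyond 50 Mb, with 93 Tconv-stronger and 12 Treg-stronger of 653 regions, while the part before held 18 and 14 of 247. The first 10 Mb of chromosome 19 held 26 Tconv-stronger and 0 Treg-stronger of 114 regions. These spans were set after the values were seen. On chromosome 11, 25 regions were present in the 5 Treg lists and absent from Tconv, and 23 the reverse, against 1035 and 537 over all chromosomes.

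Members lay near other members of their own direction somewhat more often than other shared regions did. Within 50 kb of another Treg-stronger region were 19.6% of Treg-stronger regions, 12.9% of Tconv-stronger and 12.7% of all shared regions. Another Tconv-stronger region lay that near for 18.1% of Tconv-stronger, 10.9% of Treg-stronger and 11.3% of all. Regions found in 1 cell type only, with a peak in all its lists and in no list of the other, followed the same pattern. A Treg-only region lay within 50 kb of 12.7% of Treg-stronger, 8.57% of Tconv-stronger and 7.57% of all shared regions. For Tconv-only regions these shares were 3.46%, 8.04% and 4.31%. The regions in 1 cell type come from the same lists, so their nearness was not tested.

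Shared regions that were no members shifted little, which the rule in part fixes, since their differences lie between −15 and 15. Within 10 kb of a Treg-stronger region their median difference was 1.64, against 0.96 over all 12597 such regions, and within 10 kb of a Tconv-stronger region it was 0.026. Between 10 and 50 kb of the nearest member the medians were 1.41 and −1.0. Most members were single, with 953 Treg-stronger and 774 Tconv-stronger regions lacking another of their direction within 50 kb. The largest groups joined by gaps of at most 50 kb had 4 Treg-stronger regions. One spanned chromosome 6 from 15678609 to 15740535, where all 4 shared regions were Treg-stronger, with differences from 19.1 to 45.7, and 1 Treg-only region lay between them. The other spanned chromosome 10 from 74766038 to 74828388, where again all 4 shared regions were members, with differences from 21.2 to 44.6. Tconv-stronger regions formed 5 groups of 3 at most. The shortest ran on chromosome 3 from 59032659 to 59066451, with differences of −20.9, −22.0 and −19.7.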

How the data were processed

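Each library comes with 1 deposited list of broad peaks, and for every peak the authors' peak caller wrote its fold ratio to background, its −log10 p and its −log10 q. DESeq2, DiffBind, MACS2, Bowtie2 and Trim Galore (version 0.4.4) appear among the tools of the submitters' processing notes, without roles, as does the build NCBIM37. DESeq2 and DiffBind were not run here. Read depth, background model and cut-site shift are not given in the sources, and each could affect the rank of a peak. The gene table at hand is of GRCm38.p6, another build, so the planned gene and motif descriptions were not made.

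Groups came from the sample titles. Overlapping or touching peaks were joined, with positions 1-based in the text. A region's strength in a list was the highest percentile of −log10 p among its peaks there. The genotype contrast used limma 3.58.1 (R 4.3.3) with a trended prior on percentiles ranked again among the shared regions, and was tested on simulated data. The simulated noise was normal, independent between regions and lists, and not bounded as percentiles are. Shifts shared by many regions of a list were therefore not covered. Other work used Python 3.11.15, numpy 2.4.6, pandas 2.3.3, scipy 1.17.1 and matplotlib 3.10.9. Regions named are the 12 largest differences per direction, the 2 nearest regions on either side of each threshold, and the 3 members per direction and cell type with the smallest limma p. Groups of neighbouring members and chromosome spans were picked after seeing the data. Members, lists and tests were chosen with earlier results of these data known.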

Additional observations from a re-analysis of the deposited data

Results flagged for a closer look

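At the Tconv-stronger region on chromosome 3 from 126537352 to 126538121, WT Treg replicate 3 ranked at a percentile of 37.6, while the other 4 Treg lists lay between 5.71 and 12.4. A single library far from the others of its cell type drew attention to it. It was the only such case among 48 sets of lists (24 leading regions, 5 Treg and 6 Tconv lists each), where chance gives about 1 in 20.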

How the results depend on the processing

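The cause of these changes was not tested, except where the setting itself shows it. A threshold of 10 gave 2365 Treg-stronger and 1738 Tconv-stronger regions, and one of 20 gave 600 and 509. Requiring peaks to cover 50% of the region in every list gave 330 and 197, from 6976 regions. With KO Treg replicate 2 included, 4455 regions had a peak in all 12 lists, and 119 and 125 passed, of which 119 and 17 are main members. WT libraries alone gave 2055 Treg-stronger regions (67.2% of both directions) and KO libraries alone 1533 Tconv-stronger (57.8%). Tconv-stronger regions were the more frequent in several settings: ranked among the shared regions the counts were 1250 and 1372, with equal numbers of top peaks 915 and 1044, in KO libraries alone 1119 and 1533, and without WT Treg replicate 2 they were 1089 and 1188. Of the main members, 927 and 828 passed when ranked among shared regions, and 628 and 506 with stricter peaks (−log10 q of at least 5). Ranking within each chromosome, added after seeing the data, gave 1205 and 953, with 38 and 113 on chromosome 11. Leaving out single libraries gave 0 to 1 limma calls for genotype in Treg (1 without KO Treg replicate 1, not a member) and 0 to 5 in Tconv (5 without WT Tconv replicate 3, of which 1 is a member, on chromosome 15). All other genotype settings run gave 0. Each of the 24 leading regions kept its direction in all 19 alternatives, with differences of at least 25.4. For these regions the replicate block and leaving out KO Tconv replicate 2 gave the same values, so these settings are not separate. In these regions every list of 1 cell type ranked above every list of the other. Settings that only left out or reweighted lists therefore could not reverse the direction.

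The labels do not say whether libraries of the same number came from the same animal or were sorted or sequenced together. The correlation of their deviations between Treg and Tconv was 0.00649 to 0.111. Each WT Treg library correlated best with its own number, though for replicate 2 at only 0.00649. KO Treg replicates 1 and 3 did so too. As the only KO Treg lists used, their deviations mirror each other, so these are not separate results. Between genotypes the correlation of the same number was −0.107 to −0.0037. Averaging differences within numbers, as a replicate block, gave 1358 and 1025 regions. Without KO Treg replicate 2, this average equals the plain difference of means with KO Tconv replicate 2 dropped. These counts therefore cannot show an effect of pairing. The limma fits with the block gave 0 calls.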
